A study of Caenorhabditis elegans with 6 samples.

Results

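The wild-type sorted touch neurons were 3 RNA-seq libraries, replicates 1, 2 and 3, of the 6 touch neuron libraries in the study. They were chosen by their labels alone, as every library of the series labelled wild type and touch receptor neuron, and the mec-8 mutant libraries were not used here. The study collected *Caenorhabditis elegans* at the L4 larval stage, dissociated them into single cells and sorted the cells that carried green fluorescent protein (GFP) under the control of the *mec-4* promoter. The labels give the strain as N2, the standard wild type, whereas the methods of the study describe sorting from the GFP strain zdIs5 with non-fluorescent N2 cells used to set the gates, so the transgene is taken from the methods. No GFP-negative cells were analysed here, and each library is a pool of cells from many animals. The values are read counts per gene, written here as CPM (each count divided by the total over genes of its library and multiplied by 1000000), and as TPM wherever the levels of different genes are compared, since TPM also divides by the exon length of the gene before scaling.

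The touch receptor neurons (TRNs) ALML, ALMR, AVM, PVM, PLML and PLMR run along the body wall next to the hypodermis and sense gentle touch. The transcription factors UNC-86 and MEC-3 set their fate and turn on a group of genes that includes a mechanosensory channel (MEC-4 and MEC-10 with the accessory proteins MEC-2 and MEC-6), an alpha-tubulin (MEC-12) and a beta-tubulin (MEC-7) that build unusually thick microtubules, and the enzyme MEC-17, which acetylates alpha-tubulin. The processes of these cells lie embedded in hypodermis and are anchored to the cuticle, and they make up a very small part of the cells of an animal.

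Gene counts totalled 23160250, 27882591 and 15334872 in replicates 1, 2 and 3. A count of 3, used here as the floor of detection, corresponded to 0.130, 0.108 and 0.196 CPM in these libraries. At least 1 count was found on 22094 of 46726 genes in any library and on 12207 genes in all 3, while 9666 genes had at least 10 counts in all 3. Replicate 1 stood apart in its reads outside single genes. It had 2.58 entries for mapping to several places per uniquely mapped read, against 0.182 in replicate 2 and 0.121 in replicate 3. Whether a read adds 1 such entry or 1 for each of its places is not given in the sources used here. In replicate 1, 11.1% of unique reads fell on more than 1 gene, against 3.0% and 3.04% in replicates 2 and 3. Across the 22094 genes, Pearson's r of log2 CPM was 0.725 between replicates 1 and 2, 0.727 between replicates 1 and 3 and 0.751 between replicates 2 and 3, and these genes share their libraries and are not independent replicates. The biological coefficient of variation, a measure of how far the level of a gene differs among libraries once counting error is set aside, was 0.793 over 9840 genes (edgeR). The methods of the study describe biological triplicates, and no pair of libraries held the same counts.

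The marker genes of TRNs were present in every library, at levels that differed about 10-fold between libraries. The 4 markers *mec-17*, *mec-7*, *mec-12* and *mec-4* together took 1.38% of gene counts in replicate 1 (95% Wilson interval 1.37 to 1.38%), 0.133% in replicate 2 (0.132 to 0.135%) and 0.438% in replicate 3 (0.434 to 0.441%). The mean was 0.649% ± 0.647 (SD, n = 3), and it was 0.285% without replicate 1. These intervals cover counting error only, and the spread between the libraries was far wider. In bulk samples, fewer cells of a type and less RNA per cell cannot be told apart, so the share does not say how many TRNs each library held.

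By gene, *mec-17* (WBGene00003178, WBcel235 chromosome IV, 7983802 to 7987183, minus strand) had 4992, 743 and 1350 CPM in replicates 1, 2 and 3. The beta-tubulin *mec-7* (WBGene00003171, chromosome X, 7774856 to 7776689, minus strand) had 3295, 324 and 1238 CPM. The alpha-tubulin *mec-12* (WBGene00003175, chromosome III, 3131574 to 3139234, minus strand) had 5387, 245 and 1771 CPM. All 3 genes were thus highest in replicate 1 and lowest in replicate 2, by 6.72-fold, 10.2-fold and 22-fold. The channel subunit *mec-4* (WBGene00003168, chromosome X, 16803321 to 16807115, minus strand), whose promoter drives the GFP used in the sort, had 77.7, 21 and 16 CPM. It was the only 1 of the 4 with its lowest value in replicate 3. Ordered by the lowest TPM of the 3 libraries, *mec-17* was number 32 among all protein-coding genes, *mec-7* number 144, *mec-12* number 203 and *mec-4* number 3976. A gene on the opposite strand overlaps *mec-17*, *mec-12* and *mec-4* in the annotation, and whether the counting used strand is not given in the sources used here.

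**Figure D1:**
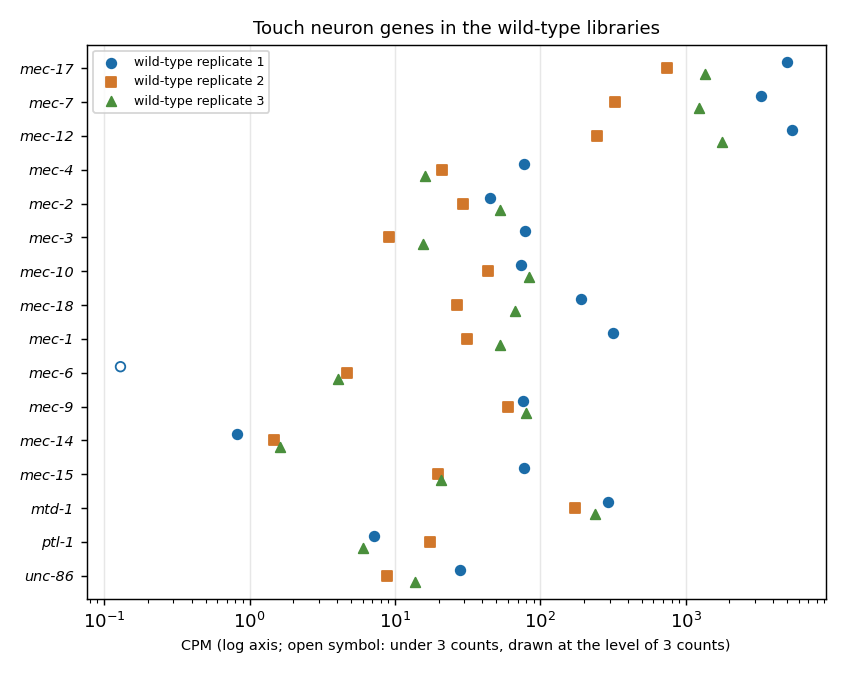
CPM of 16 TRN genes (rows, log axis) in wild-type replicates 1, 2 and 3 (points), with values under 3 counts drawn open at the level of 3 counts. The markers *mec-17*, *mec-7* and *mec-12* lie between 245 and 5387 CPM with replicate 1 highest, while *mec-9*, *mec-10* and *mtd-1* have their 3 libraries close together.

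Of 12 other genes known from TRNs, 11 had at least 10 counts in every library, against 9666 of the 22094 genes with any count. The 22094 are not limited to the 19617 protein-coding genes, here and for the lists below. The share among protein-coding genes alone was not computed. The gene *mtd-1*, which depends on MEC-3, had 293, 173.5 and 237 CPM and was the only 1 of the 12 at 100 CPM or more in all 3. The extracellular matrix protein gene *mec-9* had 76.7, 60.4 and 79.7 CPM, and the channel subunit *mec-10* had 73.6, 44 and 83.7 CPM. The 3 libraries lay within 2-fold of each other for these genes, unlike for the markers. A wider spread was seen for *mec-1*, which encodes another matrix protein, at 318, 31.1 and 52.6 CPM. For *mec-18*, related to acyl-CoA synthetases, the values were 189, 26.7 and 67.2 CPM. The F-box gene *mec-15* had 77.0, 19.7 and 20.6 CPM. Replicate 1 was the highest library for each of these, as for the markers. The stomatin-like *mec-2* was similar in all libraries, at 44.8, 29.6 and 52.6 CPM, and the tau-like *ptl-1* was highest in replicate 2, at 7.21, 17.5 and 6.0 CPM. Last of the group by lowest TPM were *mec-14*, at 0.820, 1.47 and 1.63 CPM, and *mec-6*, the paraoxonase-like channel partner, which had no count in replicate 1 (a level of up to 0.130 CPM) against 4.66 and 4.04 CPM in replicates 2 and 3.

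Taking markers and other TRN genes as 1 group, 9 of 16 (56.2%) had the order replicate 1, then 3, then 2, from high to low. Among the 9313 protein-coding genes that reached 10 CPM in their highest library, 12.6% had this order. Replicate 1 was the highest library for 10 of the 16 TRN genes and for 38.6% of those 9313 genes. These are counts over genes of the same 3 libraries and carry no test. Of the 16, *mec-6* and *mec-14* stayed under 10 CPM in every library, unlike the 9313 genes.

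The regulators of TRN fate were detected in part. The LIM homeobox gene *mec-3* had 78.8, 9.07 and 15.5 CPM, and the POU homeobox gene *unc-86* had 27.9, 8.89 and 13.7 CPM. Both were highest in replicate 1. The zinc finger gene *sem-4* differed in the other direction, with 1.99, 35.0 and 35.7 CPM. Of 12 fate regulators, 7 had at least 10 counts in all 3 libraries, against 9666 of the 22094 genes with any count. The 12 together took 0.0124, 0.00928 and 0.00840% of counts.

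The TRN marker tubulins *mec-12* and *mec-7* did not make up the same part of all tubulin in each library. Per length, *mec-12* was 69.4, 15.8 and 76.3% of the summed TPM of 9 alpha-tubulins in replicates 1, 2 and 3. For *mec-7* the share of 6 beta-tubulins was 69.2, 23.2 and 65.6% of TPM. Replicate 2 was the low library for both, whereas replicates 1 and 3 were alike. The alpha-tubulin *tba-8*, among the 9, had 0, 469 and 3.78 CPM, so it adds to the alpha-tubulin total mainly in replicate 2. In that library *mec-12* had 245 CPM. The widely expressed tubulins *tbb-2*, with 648, 665 and 405 CPM, and *tba-1*, with 517, 384 and 175 CPM, varied less than *mec-12* and *mec-7*. Near-identical tubulin copies share reads, and these values hold only reads that were placed on 1 gene. Among other microtubule regulators, the kinesin-13 gene *klp-7* had 226, 45.8 and 131 CPM, while the EMAP-like gene *elp-1* had 33.2, 38.3 and 34.6 CPM, about the same in each library.

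The chaperone gene *crt-1*, for calreticulin, was the only 1 of 7 genes of the channel complex at 100 CPM or more in every library, with 503, 1106 and 526 CPM, and it is active in many tissues. The stomatin-like *unc-24* had 25.9, 9.79 and 17.5 CPM. Of 9 genes for matrix and attachment, 7 were highest in replicate 3, as were 22.9% of the 9313 protein-coding genes. The laminin alpha chain *epi-1* had 17.1, 188 and 627 CPM. For hemicentin, *him-4*, the values were 22.6, 43.6 and 332 CPM. The perlecan gene *unc-52*, a basement membrane component of muscle, had 173, 199 and 361 CPM.

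General neuronal genes were detected throughout. All 20 pan-neuronal genes had at least 10 counts in every library, against 9666 of the 22094 genes with any count. Together the 20 took 0.132, 0.0509 and 0.0813% of counts. Genes of peptide processing were among the first of this list by lowest TPM. The proprotein convertase chaperone *sbt-1* had 430, 120 and 185 CPM, the carboxypeptidase *egl-21* had 484, 79.0 and 261 CPM, and the convertase *egl-3* had 89, 34.9 and 46.1 CPM. Each was highest in replicate 1 and lowest in replicate 2. The synaptic vesicle priming gene *unc-13* had 39.1, 31.6 and 38.8 CPM. The kinesin gene *unc-104*, which moves vesicles along the axon, had 25.7, 33.7 and 34.2 CPM. Both hardly differed between libraries. No pan-neuronal gene that reached 10 CPM in its highest library had a range over 10-fold, of 15 such genes, against 33.4% of protein-coding genes overall.

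Genes for particular transmitters were mostly under 10 CPM, apart from *unc-25* and *tdc-1* in every library and *unc-17* and *tbh-1* in replicate 1. The glutamate transporter *eat-4*, which TRNs are known to use, had 0, 27 and 35 counts in replicates 1, 2 and 3, or 0, 0.968 and 2.28 CPM. The glutamate decarboxylase *unc-25*, which makes GABA, had 56.8, 173 and 310 CPM. Its partners in GABA neurons did not reach 10 CPM in any library: the vesicular transporter *unc-47* had 0, 1.97 and 1.24 CPM, and *unc-46* had 0, 1.04 and 3.98 CPM. The tyrosine decarboxylase *tdc-1*, of tyramine and octopamine neurons, had 206, 19.1 and 24.7 CPM. The tyramine hydroxylase *tbh-1* had 14, 0.0717 and 1.30 CPM, so it was also highest in replicate 1. The cholinergic transporter *unc-17* had 14.8, 0.932 and 2.87 CPM, and the overlapping *cha-1*, for choline acetyltransferase, had 0, 2.69 and 6.39 CPM. These genes share a first exon, so the division of reads between them is uncertain. The 3 dopaminergic genes took at most 0.000404% of counts in any library. For 9 genes of ciliated sensory neurons the share was 0.000799, 0.00231 and 0.00248%, with 6 of the 9 at 0 counts in replicate 1. The 4 markers of FLP and PVD, neurons that also use MEC-3, took 0.00107, 0.00176 and 0.00138%, of which *dma-1*, a dendrite receptor gene, held the most, with 10.3, 13.4 and 12.5 CPM.

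Of 31 FMRFamide-like peptide genes, 24 had at least 10 counts in every library, against 9666 of the 22094 genes with any count. Replicate 1 was highest for 20 of the 31, against 38.6% of the 9313 protein-coding genes that reached 10 CPM. Only 16 of the 31 reached 10 CPM, so the shares compared cover genes of different levels. The first by lowest TPM was *flp-9*, with 124, 59.0 and 47.2 CPM. It was followed by *flp-8*, with 125, 51.9 and 37.6 CPM. Among 71 neuropeptide-like genes, *nlp-21* had 87.7, 64.2 and 114 CPM and *nlp-17* had 196, 32.1 and 77.1 CPM. The antimicrobial peptide gene *nlp-27*, of the hypodermis, was highest in replicate 2, with 74.0, 225 and 23.5 CPM.

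Genes that were high in all 3 libraries included many of protein synthesis and some of muscle. A level of 100 CPM or more in every library was reached by 597 genes, which held 52.5, 52.2 and 63.6% of counts, whereas 2492 genes reached it in at least 1 library and 1325 in exactly 1. The count was 1310 at a threshold of 50 CPM and 221 at 200 CPM. The 597 genes included 42 of 81 cytosolic ribosomal protein genes, all 6 translation elongation factors, 11 of 15 body wall muscle genes, 8 of 156 *col* collagens and 3 of the 4 TRN markers, with *mec-4* the exception.

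Per length, the nucleoside diphosphate kinase *ndk-1* had the largest lowest level, at 17353, 12952 and 23663 TPM in replicates 1, 2 and 3. The ribosomal protein gene *rpl-12* was next, at 12166, 10790 and 12294 TPM, with hardly any spread. The elongation factor *eef-1G* had 9906, 13407 and 27409 TPM. The 25 genes at the head of this order included 7 ribosomal protein genes and 4 elongation factors. Other members serve energy supply, such as the arginine kinase gene F46H5.3 with 7031, 18088 and 31197 TPM. The ADP/ATP translocase *ant-1.1* had 4760, 20718 and 25313 TPM. Muscle genes were among them too, and these were lowest in replicate 1. Troponin C, *pat-10*, had 6357, 93533 and 52215 TPM, and the actin gene *act-4* had 5868, 11422 and 36844 TPM. The calponin-like *cpn-3* had 3582, 18277 and 18486 TPM. A single cuticle collagen, *col-98*, was among the 25, with 2429, 1356 and 1636 TPM.

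**Figure D2:**
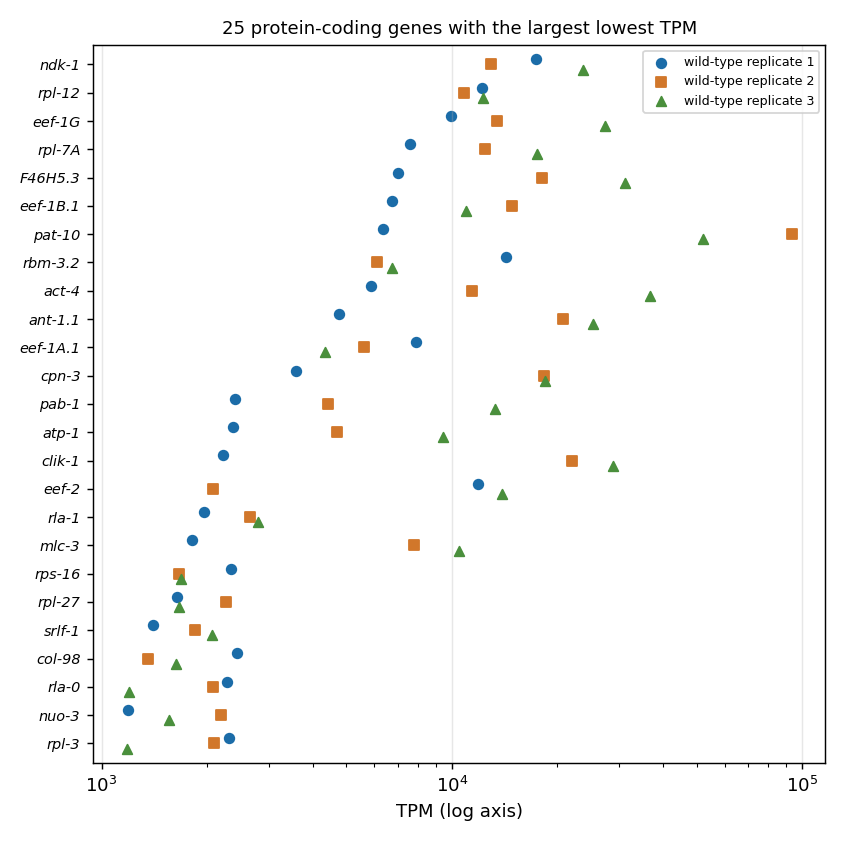
TPM (log axis) in wild-type replicates 1, 2 and 3 (points) of the 25 protein-coding genes with the largest lowest TPM, in that order from the top. The 3 libraries nearly coincide for *rpl-12* and lie far apart for *pat-10*, from 6357 to 93533 TPM.

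The ribosomal protein genes as a group took 9.89, 5.53 and 3.14% of counts. Of the 81, 73 were highest in replicate 1, against 38.6% of the 9313 protein-coding genes that reached 10 CPM. Of the 81, 79 reached 10 CPM. Elongation factors took 6.21, 3.88 and 6.30%, with *eef-2* at 31133, 4684 and 25649 CPM. Ribosomal RNA genes, which the poly(A) selection named in the labels does not aim at, took 9.35, 0.532 and 5.25%. Most of this was on 1 of 22 such genes, *rrn-3.1*, with 78432.5, 5163 and 52048 CPM. A further gene, *rrn-2.1*, had 14979, 159 and 471 CPM, so it was also highest in replicate 1. Copies of ribosomal RNA genes are near identical, so the division of reads among them is uncertain. The 36 genes of the mitochondrial genome had 0 counts in each library. Whether reads on these genes were mapped and counted at all was not tested, so the zeros do not show that mitochondrial RNA was absent.

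Some genes hardly differed between the libraries. Of the protein-coding genes with a mean of at least 100 CPM, *dcaf-1*, a substrate receptor of a ubiquitin ligase, had 116.9, 119.4 and 121.4 CPM. The cohesin subunit *scc-3* had 119.4, 129.2 and 123.7 CPM, and the AAA ATPase gene *ruvb-2* had 128.4, 130.5 and 136.2 CPM. The enzyme genes *adss-1*, of AMP synthesis, and *pdha-1*, of pyruvate dehydrogenase, were also among the 10 least variable. These genes have roles in most cells, and they were chosen here for their small spread.

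Most genes varied far more. Of the 9313 protein-coding genes at 10 CPM or more in their highest library, 3110 (33.4%) had a range over 10-fold between the highest and lowest library, 1474 over 100-fold and 1598 (17.2%) under 2-fold, and the median range was 4.84-fold. Values under 3 counts were raised to 3 counts for this ratio. With 2 libraries in place of 3, the count over 10-fold was 1364 without replicate 1, 1915 without replicate 2 and 1681 without replicate 3. The 3110 genes were highest in replicate 1 in 752 cases, in replicate 2 in 1186 and in replicate 3 in 1172, and lowest in replicate 1 in 1636 cases. In 1323 of the 3110 the lowest library held 3 counts or fewer, and so did 1179 of the 1474 genes over 100-fold. By mean level, the share with a range over 10-fold was 28% of 6020 genes at 10 to 100 CPM, 23.1% of 1377 genes at 100 to 1000 CPM and 41.4% of 87 genes at 1000 CPM or more. A mean of 3 libraries can be carried by 1 of them, as for *col-140*, so these bands are not independent of the range.

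**Figure D3:**
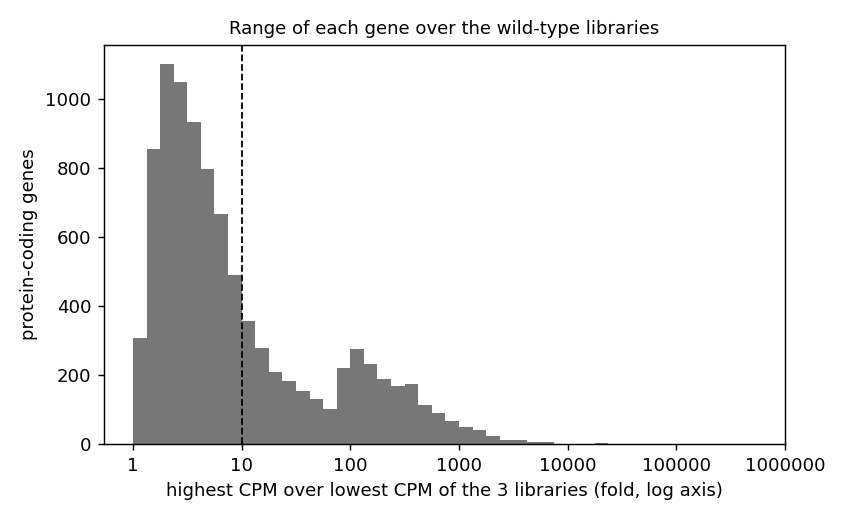
Number of protein-coding genes (vertical axis) by the ratio of highest to lowest CPM over the 3 wild-type libraries (log axis), for the 9313 genes at 10 CPM or more in their highest library. The dashed line marks 10-fold, which 3110 genes exceed, and the second rise near 100-fold holds mostly genes whose lowest library had 3 counts or fewer.

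Each list of genes of other tissues had counts in all libraries, but in replicate 1 most genes of some lists had none. There, 2 of 3 coelomocyte, 3 of 4 seam and 3 of 5 pharyngeal gland genes were at 0 counts. Body wall muscle held more counts in replicates 2 and 3 than any other list of tissue or cuticle genes. In replicate 1 the *col* collagens held more. The 15 body wall muscle genes took 2.05% of counts in replicate 1, 10.9% in replicate 2 and 13.5% in replicate 3. All 15 had at least 10 counts throughout, against 9666 of the 22094 genes with any count. Per length, the muscle list had 1.39, 88.0 and 24.5 times the summed TPM of the 4 TRN markers. Replicate 1, highest for TRN markers, was thus lowest for muscle. The myosin heavy chain gene *unc-54* had 2124, 1819 and 18419 CPM. For *myo-3*, the other body wall myosin, the values were 51.7, 508 and 1122 CPM. Paramyosin, *unc-15*, had 558, 3607 and 26719.8 CPM. The muscle transcription factors were highest in replicate 2, with *hlh-1* at 3.07, 12.9 and 4.76 CPM and *unc-120* at 0.864, 20.5 and 5.35 CPM. Of the 15 muscle genes, 8 were highest in replicate 2 and 7 in replicate 3. Among the 9313 protein-coding genes that reached 10 CPM, these shares were 38.5 and 22.9%. Pharyngeal muscle genes took less, 0.0245, 0.0831 and 0.111% of counts, and its myosin *myo-2* had 56.7, 298 and 462 CPM.

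Hypodermal genes were highest as a list in replicate 2 and lowest in replicate 1. The hypodermis list took 0.0251, 0.701 and 0.237% of counts. Of its 10 genes, 6 were highest in replicate 2, as were 38.5% of the 9313 protein-coding genes that reached 10 CPM. The separate list of *col* cuticle collagens was highest in replicate 1. The cuticle collagen *sqt-3* had 49.2, 4621 and 1675 CPM, and *dpy-13* had 33.0, 1268 and 303 CPM. The collagen *rol-6* had 0, 258 and 34.5 CPM. The regulator *lin-26*, which keeps epidermal fate, did not share this pattern and was highest in replicate 1, at 111, 23.9 and 23.7 CPM. So was *elt-3*, at 15.6, 10.1 and 4.37 CPM, while *che-14* was highest in replicate 3, at 5.48, 13.1 and 19.3 CPM. Of 7 molting genes, *noah-1*, which encodes a component of the apical matrix, had 0, 259 and 220 CPM, and *mlt-11*, a protease inhibitor gene, had 3.02, 293 and 263 CPM. The list as a whole took 0.00141, 0.0779 and 0.0766%, alike in replicates 2 and 3. The seam cell gene *wrt-2* had 0, 423 and 135 CPM, whereas *grd-10*, also on the seam list, had 149, 167 and 46.1 CPM. The 4 seam genes together took 0.0149, 0.0632 and 0.0183% of counts, with 3 of the 4 at 0 counts in replicate 1.

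The *col* family of cuticle collagens showed that different members were used by different libraries. Its 156 genes took 10.4, 4.02 and 1.19% of counts, and 74 of the 98 that reached 10 CPM had a range over 10-fold. In replicate 1 the member with most counts was *col-140*, with 477008, 35 and 101 counts in replicates 1, 2 and 3. The adult collagen *col-19* had 46394, 1 and 5 counts. In replicate 2 the abundant members were others, such as *col-107* with 52.5, 12587 and 489 CPM and *col-125* with 90.1, 7334 and 1212 CPM.

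The yolk protein genes, which the intestine of adult hermaphrodites expresses, were found almost wholly in replicate 1. They took 0.554, 0.00155 and 0.000248% of counts. All 6 were highest in replicate 1, against 38.6% of the 9313 protein-coding genes that reached 10 CPM. For *vit-2* the counts were 36901, 6 and 4. The copies *vit-3*, *vit-4* and *vit-5* are nearly identical, so reads placed on each are uncertain. Other intestinal genes did not follow this division: *act-5*, the actin of microvilli, had 423, 190 and 61.6 CPM, and the endodermal regulator *elt-2* had 3.41, 7.07 and 1.37 CPM.

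Germline genes were also highest in replicate 1, at 1.11, 0.137 and 0.451% of counts. Of the 14, 11 had their highest value there, against 38.6% of the 9313 protein-coding genes that reached 10 CPM. The yolk receptor of oocytes *rme-2* had 4644, 102 and 394 CPM. The oocyte regulator *puf-5* had 1469, 8.86 and 10.04 CPM. The germ granule helicase *glh-1* differed from these and was highest in replicate 3, with 1514, 727 and 3034 CPM. Major sperm proteins took 0.151, 0.00260 and 0.344%. Their 31 genes were low in replicate 2, where 8 had no count. Replicate 3 was highest for 20 of them, against 22.9% of the 9313 protein-coding genes. Of the 31 sperm protein genes, 26 reached 10 CPM, as all of the 9313 did. This family is made of near-identical copies, so the sum is better determined than any member.

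Coelomocyte genes, of the scavenger cells in the body cavity, were present in replicates 2 and 3 but hardly in replicate 1. The channel gene *cup-4* had 7, 17728 and 3650 counts. The receptor-like *lgc-26* had 0, 7241 and 3060 counts, and its CPM in replicate 2 was at least 2005-fold above the floor of replicate 1. For *unc-122* the counts were 0, 5563 and 1376, at least 1540-fold. The promoter of *unc-122* is widely used to label these cells. The 3 genes together took 3.02e-05, 0.110 and 0.0527% of counts. Pharyngeal gland genes were a feature of replicate 2, with 0.00103, 0.221 and 0.00443% of counts, nearly all from *phat-4*, at 7.99, 2142 and 39.3 CPM.

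Heat shock genes of the HSP70 family were lowest in replicate 1. The inducible genes F44E5.4 and F44E5.5, near-identical copies, had 25.9, 2337 and 1102 CPM and 23.2, 1967 and 884 CPM. For *hsp-70* the values were 17.1, 211 and 613 CPM. The small heat shock gene *hsp-16.41*, in contrast, had 147, 124 and 157 CPM and hardly varied. Of the 9 genes on this list, 5 matched a single entry in the annotation.

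**Figure D4:**
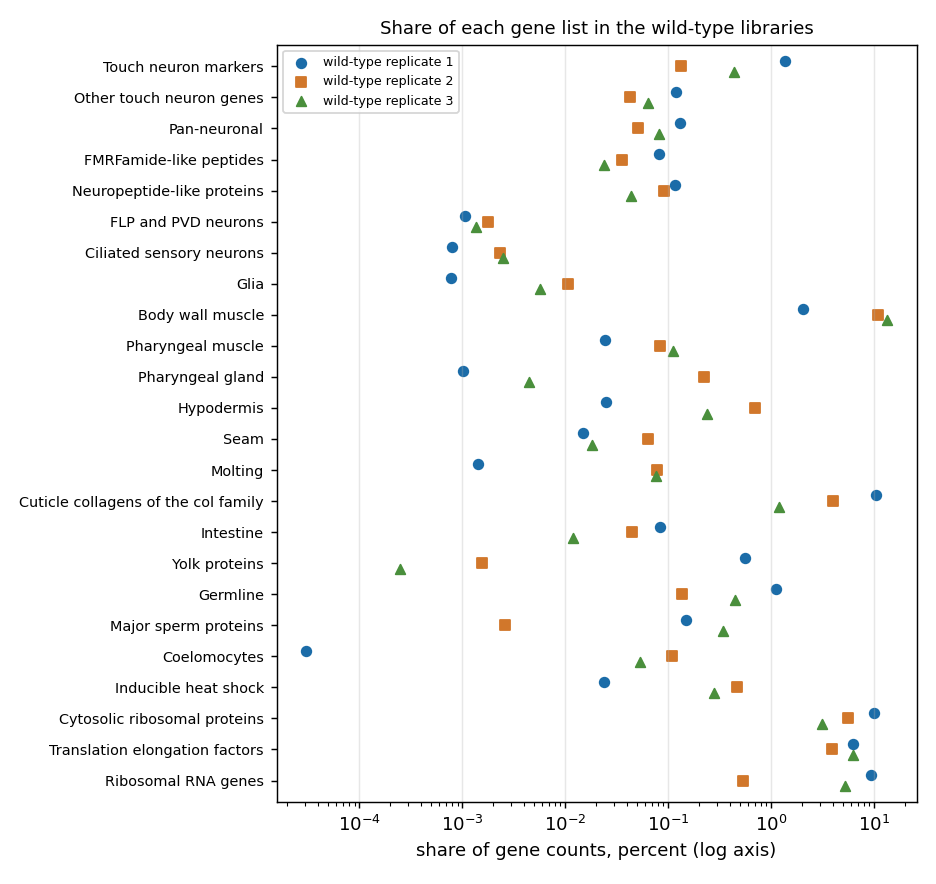
Share of gene counts in percent (log axis) taken by each gene list (rows) in wild-type replicates 1, 2 and 3 (points). The TRN marker share differs 10.3-fold between libraries and the pan-neuronal share 2.59-fold. Other lists also lie within 10-fold, such as body wall muscle (6.57), intestine (7.10), germline (8.16) and *col* collagens (8.70). Yolk protein, coelomocyte, pharyngeal gland and major sperm protein lists differ by more than 100-fold.

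Some genes were found almost wholly in 1 library. For each library, the 10 protein-coding genes of at least 100 CPM with the largest excess over the next library were taken, so the excess itself is a description. In replicate 1 these were *vit-2*, *vit-3*, *vit-4* and *vit-5*, the collagens *col-19*, *col-106*, *col-119*, *col-140* and *col-143*, and *ule-3*, a gene named for the uterine lumen. In replicate 2 they included *idpb-1*, with 0, 3939 and 4 counts, and *idpb-2*, with 0, 18154 and 66 counts. With them came the collagen *col-90*, the alpha-tubulin *tba-8* and the hedgehog-related *grd-14*. In replicate 3 they included *pei-1*, a sperm granule gene, with 3, 1 and 6068 counts, and the cuticle collagen *bli-1*, with 3, 1 and 2228 counts. The gene C01G5.4 had 4295 counts in replicate 3 and none in replicates 1 and 2, and R08A2.2 had 1859 counts in replicate 3 and none in the others.

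**Figure D5:**
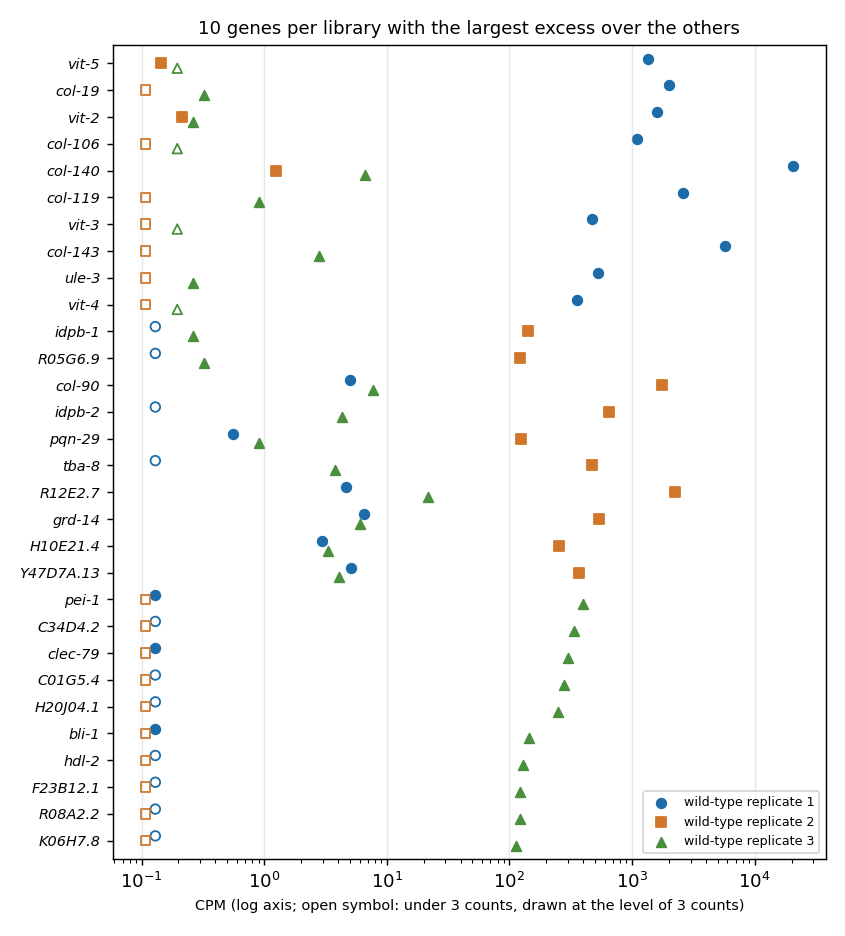
CPM (log axis) in wild-type replicates 1, 2 and 3 (points) of the 30 genes most particular to 1 library, the first 10 rows for replicate 1, the next 10 for replicate 2 and the last 10 for replicate 3. Open symbols are values under 3 counts, drawn at the level of 3 counts, and *col-140* reaches 20596 CPM in replicate 1.

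A gene could also be missing from 1 library. Of 5223 genes at 10 CPM or more in both replicates 2 and 3, 131 (2.51%) had 0 counts in replicate 1, although 23160250 gene counts were taken from it. For replicate 2 the number was 17 of 4673 genes, and for replicate 3 it was 0 of 5088. Of the 131 genes, 118 were on no list used here and 13 were on 1 or more, among them 6 *col* collagens, 2 coelomocyte genes (*lgc-26* and *unc-122*), 2 hypodermal genes (*rol-6* and *dpy-7*), the molting gene *noah-1* and the seam gene *wrt-2*. None of the 16 TRN genes was among them, since *mec-6*, the only 1 at 0 counts there, was under 10 CPM in both other libraries.

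Genes that act in axon growth and repair, processes studied in TRNs, were mostly detected. Of 14 axon guidance genes, 11 had at least 10 counts in every library, against 9666 of the 22094 genes with any count. The list took 0.0362, 0.0380 and 0.0464% of counts. The netrin receptor *unc-40* had 116, 70.5 and 52.1 CPM, and the ephrin receptor *vab-1* had 142, 41.4 and 61.2 CPM. The Wnt gene *lin-44* was spread more widely, with 3.71, 89.9 and 171 CPM. In the regeneration pathway the p38-type kinase *pmk-3* had 15.5, 28.5 and 29.2 CPM, and the ubiquitin ligase *rpm-1*, which restrains the pathway, had 41.9, 18.4 and 9.98 CPM.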

How the data were processed

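The authors mapped paired-end reads with STAR to WBcel235 and counted them per gene with HTSeq, and the deposited values are raw counts per gene, with no normalization. The version of HTSeq, its strand setting and its annotation are not given in the sources used here. The 5 summary lines were left out of totals. They hold reads on no gene, 3.57, 0.688 and 0.679% of unique reads in replicates 1, 2 and 3, and reads on more than 1 gene.

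CPM was computed over gene counts, and TPM from counts per kilobase of merged exons (Ensembl release 115), in which 46364 of 46726 genes were found (Python 3.11.15, pandas 2.3.3, numpy 2.4.6, scipy 1.17.1). Spread was estimated by edgeR 4.0.16 in R 4.3.3 with an intercept only. DESeq2 1.42.0 size factors were an alternative. With 1 genotype and no contrast, no test between groups was run. The 3 mutant libraries were not used.

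Genes named in the text were the TRN genes, the 25 with the largest lowest TPM, the 10 least variable with a mean of at least 100 CPM, the 10 most particular to each library, the 3 most abundant of each library, the 3 members of each of 41 lists with the largest lowest TPM, and further list members where a statement turned on them. The members and lists were chosen with earlier results of these data known.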

Additional observations from a re-analysis of the deposited data

How the results depend on the processing

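No paired analysis was possible because only 1 genotype is described and no groups were compared. Over protein-coding counts, or without ribosomal RNA and mitochondrial genes, none of 39 list shares (all but ribosomal RNA) moved over 1.5-fold. Such a move was not possible, because protein-coding counts made up 89.8, 98.7 and 93.6% of gene counts in replicates 1, 2 and 3. Ribosomal RNA held at most 9.35% and the mitochondrial genes 0 counts, so these settings do not test the shares. Leaving out 1 library moved the mean share of 20 of 40 lists over 1.5-fold. The TRN marker share was then 0.285% to 0.906%, and the yolk protein share 0.000899% without replicate 1, against a mean of 0.185%. The median percentile of the TRN markers was 99.1 by CPM among detected genes and 98.9 by TPM among all protein-coding genes. The 597 genes at 100 CPM or more in every library became 1310 at 50 CPM and 221 at 200 CPM. The 3110 genes with a range over 10-fold became 5734 of 14190 genes with a minimum of 1 CPM and 745 of 2455 with a minimum of 100 CPM, and 1364 to 1915 when 1 library was left out, since 2 libraries have a smaller range than 3. With TMM or DESeq2 size factors, or a pseudocount of 1 CPM, this count stayed between 2657 and 3034. The coefficient of variation was 1.37 with no filter on low counts. Pearson's r between libraries with a prior count of 5 was 0.760 for replicates 1 and 2, 0.747 for 1 and 3 and 0.785 for 2 and 3. Over the 9666 genes with at least 10 counts throughout it was 0.615 for replicates 1 and 2, 0.640 for 1 and 3 and 0.765 for 2 and 3. Of 1935 values of 387 named genes under alternatives, 9 moved by more than the spread, the SD of the 3 libraries. All 9 came with protein-coding counts only and were for the genes chosen for their small spread. A mean with 1 library left out cannot move that far, because dropping 1 of 3 values shifts it by less than the SD. Such values therefore say nothing about stability. With 3 libraries and no GFP-negative cells, enrichment in TRNs cannot be told from RNA of other cells.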
